A study of Mus musculus with 190 samples.

Results

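The genes described here are 5 transcription factors that define lineages of helper T cells: Tbx21, Gata3, Rora, Maf and Bcl6. They were taken by gene symbol from a whole-blood RNA-seq table of 55414 genes, in which each symbol matched 1 row, and all 5 were among the 18192 genes kept for testing by a filter on low counts. The 190 libraries came from male wild-type NC/Nga mice, inbred animals that can develop a dermatitis resembling atopic dermatitis when it is not kept free of pathogens. Blood of 9 cohorts of 10 mice in conventional housing was drawn first on a day of the cohort's own (days 2, 5, 9, 12, 16, 19, 23, 26 and 30 for cohorts 1 to 9). It was drawn again on day 44 in cohorts 1, 3, 5, 7 and 9 and on day 40 in cohorts 2, 4, 6 and 8. A control cohort of 5 specific-pathogen-free (SPF) mice was bled on days 16 and 44. The labels give no treatment, no age and no day of birth, and each library carries a dermatitis score. Scores of 0 were given to 58 of 90 conventional libraries at first sampling and to 7 of 90 at the second. Scores of 2 or 3 were given to 11 at the first, and 67 at the second were scored 2, 3 or 4. All 10 SPF libraries were scored 0. The study set out to describe blood before and after the onset of dermatitis and at different severities.

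Helper T cells take on separate programmes under the control of a few transcription factors. T-bet, the product of Tbx21, directs Th1 cells and is also needed by natural killer (NK) cells, and GATA3 directs Th2 cells and the group 2 innate lymphoid cells (ILC2) that take part in allergic inflammation. The nuclear receptor RORα, the product of Rora, works beside RORγt in Th17 cells and is required for ILC2, and c-Maf, the product of Maf, controls interleukin production in several helper subsets, IL-4 and IL-10 among them. BCL6 is a repressor that directs follicular helper T cells and germinal centre B cells and restrains the other programmes, and it is also expressed in myeloid cells. None of the 5 is restricted to T cells, and whole blood is a mixture, so that fewer cells of a type and less RNA per cell cannot be told apart in any value given here.

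The DNA just upstream of the start sites is shown because Bcl6, whose level varied most between groups, was the only one of the promoters at hand to carry the palindrome TTCNNNGAA, the core that STAT proteins are known to recognise. The sequences are RefSeq's, on build GRCm38.p6, and each is the 250 bases before a start site, 5′ to 3′ on the gene's strand. Capitals mark each match to TTCNNNGAA, which reads the same on both strands. The windows are chr16:23988853-23989102 and chr16:23981284-23981533 for the Bcl6 start sites, chr11:97115332-97115581 for Tbx21 (all on the minus strand) and chr9:68653536-68653785 for Rora (plus strand).
Bcl6, upstream start: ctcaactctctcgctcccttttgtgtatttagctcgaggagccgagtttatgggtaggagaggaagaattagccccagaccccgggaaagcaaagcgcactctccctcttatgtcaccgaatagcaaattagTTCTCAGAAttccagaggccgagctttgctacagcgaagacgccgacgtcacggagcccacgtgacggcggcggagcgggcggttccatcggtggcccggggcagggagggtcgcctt
Bcl6, downstream start: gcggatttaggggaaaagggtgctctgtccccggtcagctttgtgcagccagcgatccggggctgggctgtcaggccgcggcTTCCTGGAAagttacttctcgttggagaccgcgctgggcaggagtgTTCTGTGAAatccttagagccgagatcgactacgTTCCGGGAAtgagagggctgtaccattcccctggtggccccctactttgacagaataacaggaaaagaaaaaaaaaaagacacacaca
Tbx21: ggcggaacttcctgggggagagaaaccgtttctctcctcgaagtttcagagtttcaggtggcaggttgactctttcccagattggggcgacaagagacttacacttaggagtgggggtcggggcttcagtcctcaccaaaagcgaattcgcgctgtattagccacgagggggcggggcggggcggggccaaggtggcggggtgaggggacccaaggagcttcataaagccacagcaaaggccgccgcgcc
Rora: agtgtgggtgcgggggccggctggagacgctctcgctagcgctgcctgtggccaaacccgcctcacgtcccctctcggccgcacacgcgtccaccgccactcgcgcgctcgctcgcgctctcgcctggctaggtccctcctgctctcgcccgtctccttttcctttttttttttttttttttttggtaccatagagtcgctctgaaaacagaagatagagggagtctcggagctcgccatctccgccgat
The upstream Bcl6 window held 1 match, whose first base lies at -118 from the start site, and the downstream window held 3, the first of them at -168. The windows of Tbx21, Rora and Gata3 held 0. Of 32851 promoters of the same length, 7.02% held a match. The palindrome was picked after the sequences had been seen, and a match in these letters is not evidence of a bound site. The reference tables at hand matched 4 of the 5 genes, and Maf was not among them.

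Library totals lay between 21444129 and 71967299 counts (median 36448181). Levels are given as CPM, a count as a share of the library's total, scaled by TMM (trimmed mean of M values) over all 190 libraries. The scaling factors ran from 0.276 to 1.85 and differed by group, with a median of 1.185 in the first sampling, 0.909 in the second and 1.62 in the SPF libraries of day 44. The share of counts on globin genes had a median of 3.59% in cohorts 1 to 4, 6.85% in cohort 5, 7.83% in cohorts 6 to 9 and 3.6% in the SPF libraries, and that on mitochondrial rRNA genes followed the same split (6.92%, 14.7%, 15.4% and 7.38%). The day of the first sampling and these differences between cohorts cannot be told apart. The SPF library of day 16, replicate 3, stood apart with 45.3% globin counts. The 18 T cell markers used as a check of the tissue were all detected, with group medians of their summed level of 219 to 317 CPM. The labels name replicates by number and do not say which first and second samples came from the same mouse, so libraries were taken as independent and p-values measure the spread between these samples.

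All 5 genes were scarce in whole blood, and Gata3 was the scarcest. The median count per library was 596 for Bcl6, 339.5 for Rora, 193 for Maf, 87 for Tbx21 and 24 for Gata3. Compared per length of transcript, in the authors' deposited TPM, a share of all transcripts corrected for length, the medians were 1.16 for Bcl6, 0.359 for Tbx21, 0.246 for Maf, 0.222 for Rora and 0.055 for Gata3. Bcl6 had the highest TPM of the 5 in 190 of 190 libraries and Gata3 the lowest in all but 5. Gata3 had a count of 0 in 1 library, cohort 9 day 44 replicate 10, where 3 counts would have been 0.283 CPM. That limit and all counts cover counting error only.

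Per the deposited table, on build GRCm39, Tbx21 (ENSMUSG00000001444.3) lies at chr11:96988897-97006157 on the minus strand and Gata3 (ENSMUSG00000015619.11) at chr2:9861889-9894845 on the minus strand. Rora (ENSMUSG00000032238.18), the longest of the 5, lies at chr9:68561068-69295528 on the plus strand. Maf (ENSMUSG00000055435.7) lies at chr8:116409681-116434533 and Bcl6 (ENSMUSG00000022508.6) at chr16:23783802-23807602, both on the minus strand. All 5 are annotated as protein coding, and the deposited expected counts are given per gene, with no split by isoform.

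**Figure D1:**
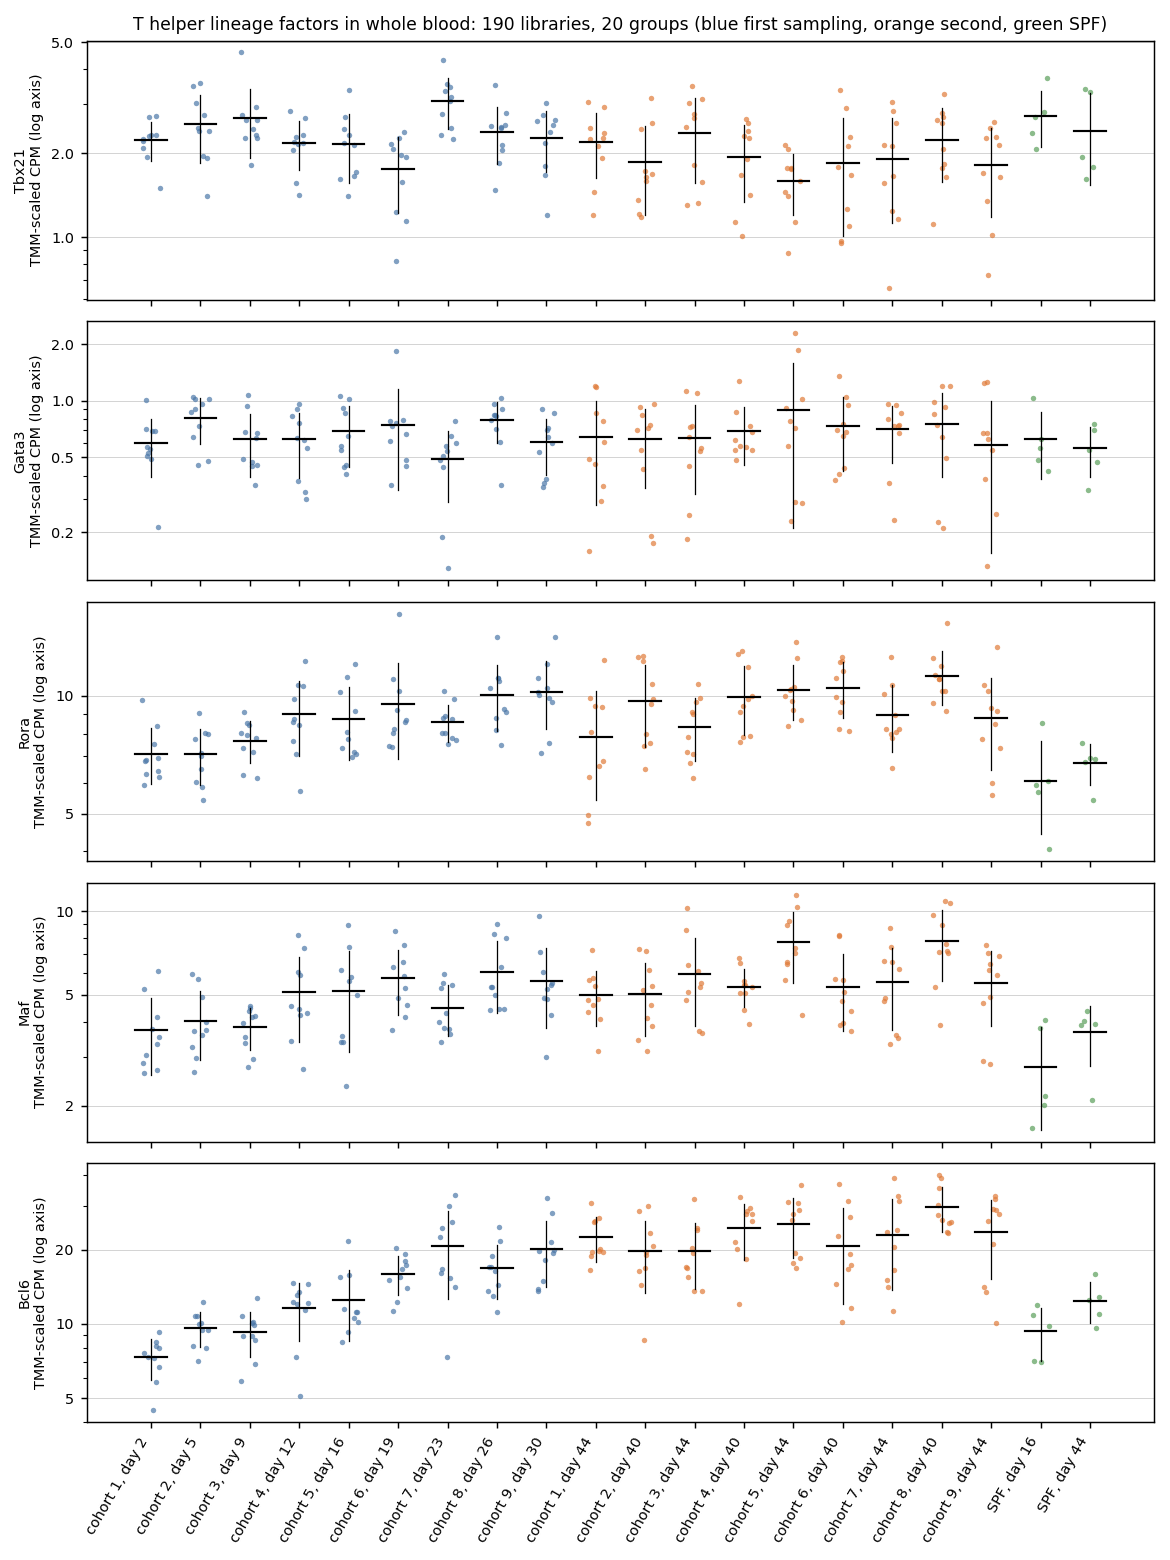
Level of each gene in every library, in TMM-scaled CPM on a log axis, by cohort within each sampling; points are libraries, blue for the first sampling, orange for the second and green for SPF, with the group mean and SD, and the 1 library without a Gata3 count is not drawn. The group mean of Bcl6 runs from 7.30 CPM in cohort 1 on day 2 to 29.7 CPM in cohort 8 on day 40. The ratio of the highest to the lowest group mean is 1.83 to 2.86 for the other 4 genes.

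Bcl6, the follicular helper factor, had the widest range of group levels. In cohort 1 on day 2, the earliest draw, the lowest, median and highest library were at 4.45, 7.50 and 9.29 CPM. On day 23 (cohort 7) they were at 7.36, 19.6 and 33.4 CPM, and in cohort 8 on day 40 at 23.4, 27.03 and 40.0 CPM. The highest group mean was 4.07 times the lowest, and the day-2 group and cohort 3 on day 9 were the only neighbours in the order of 20 group means that differed by more than the larger of their SDs. The lowest 7 group means were those of the SPF groups, of days 2 to 12, and of cohort 5 on day 16, and the highest 7 were second samplings.

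Maf, the c-Maf gene, had its highest group means in cohort 8 on day 40 and cohort 5 on day 44. The lowest, median and highest library were at 3.89, 7.41 and 10.8 CPM in the former and at 4.23, 7.23 and 11.47 CPM in the latter. In cohort 1 on day 2 they were at 2.61, 3.42 and 6.09 CPM. The SPF groups had the lowest means of all, 2.74 ± 1.10 CPM (SD, n = 5) on day 16 and 3.67 ± 0.896 CPM (SD, n = 5) on day 44. The highest group mean was 2.86 times the lowest, with 0 of 19 neighbouring groups apart by more than the larger SD.

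Rora, the RORα gene, lay closest together between libraries. In cohort 8 on day 40, the group with the highest mean, the lowest, median and highest library were at 9.15, 11.04 and 15.3 CPM, and in cohort 2 on day 5 at 5.42, 7.07 and 9.05 CPM. As for Maf, both SPF groups stood last, that of day 44 at 6.73 ± 0.796 CPM (SD, n = 5) and that of day 16 at 6.05 ± 1.60 CPM (SD, n = 5). The ratio of the highest to the lowest group mean was 1.86. The pooled SD within groups was 0.261 on the log2 scale in the first sampling and 0.305 in the second, the smallest of the 5 genes in both.

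Tbx21, the T-bet gene, was highest in cohort 7 on day 23, with libraries from 2.25 to 4.30 CPM around a median of 3.13 CPM. It was lowest in cohort 5 on day 44, with libraries from 0.874 to 2.13 CPM around a median of 1.67 CPM. In contrast to Maf and Rora, the SPF groups stood near the top of the order (ranks 2 and 5 of 20), with means of 2.73 ± 0.622 CPM (SD, n = 5) on day 16 and 2.41 ± 0.874 CPM (SD, n = 5) on day 44. The ratio of the highest to the lowest group mean was 1.93.

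Gata3 was the most variable gene between libraries of a group, with a pooled SD of 0.518 (log2) in the first sampling and 0.842 in the second. Cohort 5 on day 44 had the highest mean, with libraries from 0.229 to 2.29 CPM around a median of 0.748 CPM. Cohort 7 on day 23 had the lowest, with libraries from 0.129 to 0.778 CPM around a median of 0.526 CPM. The median of 24 counts per library limits the precision of its single values. The ratio of the highest to the lowest group mean was 1.83. The ranges of all 20 groups overlapped, and 0 of 19 neighbours differed by more than the larger SD.

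Conventional mice were compared with SPF mice on day 16, where the only conventional cohort is cohort 5, so that housing and cohort cannot be told apart there. None of the 5 genes was called at an adjusted p under 0.05 (edgeR quasi-likelihood test with Benjamini-Hochberg adjustment over all tested genes), and 0.533% of all genes were. Maf had the largest difference. In the 5 SPF libraries Maf was at 4.06, 3.80, 2.01, 1.66 and 2.17 CPM, and in the 10 conventional libraries it ran from 2.36 to 8.95 CPM around 5.31 CPM. These ranges overlap, and the log2 difference was 0.92 ± 0.27 (SE; adjusted p = 0.105, edgeR). Rora was at 8.53, 5.92, 6.07, 4.06 and 5.68 CPM in the SPF libraries and from 6.96 to 12.1 CPM in the conventional ones, 0.53 ± 0.16 higher on the log2 scale (adjusted p = 0.0998, edgeR). Bcl6 differed by 0.43 ± 0.20, Tbx21 by -0.33 ± 0.22 and Gata3 by 0.16 ± 0.41 (log2 ± SE). Unadjusted p-values were under 0.05 for 3 of the 5. DESeq2 called Maf (adjusted p = 0.0343), with 2.58% of all genes called. Without SPF replicate 1, whose Maf and Rora were the highest of the SPF libraries on that day, Rora was called by edgeR.

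On day 44 the 5 SPF libraries were compared with 50 conventional libraries of 5 cohorts, and Bcl6 and Maf were called higher in conventional mice, 2 of 5 genes beside 20.1% of all genes. The SPF mice are 1 cohort, all scored 0, and most of the conventional libraries were scored above 0. Housing therefore cannot be told apart from that cohort or from dermatitis. The fit had no term for the conventional cohorts, and with cohort means the calls of the 5 genes were the same. Bcl6 was at 11, 16.0, 12.9, 9.65 and 12.5 CPM in the SPF libraries, while the medians of the conventional cohorts ran from 18.1 to 27.2 CPM. The log2 difference of Bcl6 was 0.83 ± 0.22 (SE; adjusted p = 0.00514, edgeR). Maf was at 3.92, 3.89, 4.38, 2.10 and 4.04 CPM in the SPF libraries and the conventional medians ran from 4.81 to 7.23 CPM, a log2 difference of 0.66 ± 0.23 (SE; adjusted p = 0.0331, edgeR). Single conventional libraries overlapped the SPF range for both genes. The Maf call was lost when any single SPF replicate was left out, with adjusted p between 0.0541 and 0.147, while Bcl6 stayed called. The other 3 genes differed by 0.36 ± 0.16 (Rora, adjusted p = 0.111, edgeR), -0.32 ± 0.24 (Tbx21) and 0.28 ± 0.42 (Gata3).

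These day-44 values rest on the scaling. With library totals in place of TMM factors the median of all tested genes moved to -0.72 (log2), 413 genes were called higher and 7496 lower, and Bcl6 and Maf were at 0.18 and 0 with neither called, while Tbx21 was called at -1.0. Relative to that median, Bcl6 was 0.91 and Maf 0.73 higher, and Rora and Gata3, whose sign turned negative (-0.30 and -0.32), were 0.42 and 0.41 higher. All 12 neutrophil markers were also higher in conventional mice on day 44, with a median log2 difference of 3.12. Their summed level on that day was 400 to 747.5 CPM in the SPF libraries and 371 to 15720 CPM in the conventional libraries. No marker of that list was at 0 in every library. With the means of the T cell and neutrophil markers of the same libraries as covariates, the Bcl6 difference was 0.08 (adjusted p = 0.962, edgeR) and that of Maf 0.71 (adjusted p = 0.401), and neither was called. With cohort 5 as the only conventional cohort, 4 genes were called beside 20.9% of all genes: Maf at 1.05, Bcl6 at 1.01 and Rora at 0.60 higher, and Tbx21 at -0.61 (log2).

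From day 16 to day 44 Bcl6 rose within conventional cohort 5, from a range of 8.44 to 21.8 CPM to one of 16.8 to 36.4 CPM. The change was 1.00 ± 0.16 on the log2 scale (SE; adjusted p = 6.01e-05, edgeR), the only call among the 5 genes, with 12.6% of all genes called. With the T cell and neutrophil marker means as covariates it was 0.44 and not called (adjusted p = 0.363, edgeR). Maf changed by 0.56 ± 0.21 (adjusted p = 0.0799) and Tbx21 by -0.45 ± 0.19 (adjusted p = 0.106). In the SPF mice 0 of the 5 genes and 0% of all genes were called over the same days, 0 of the 5 had an unadjusted p under 0.05, and DESeq2 called 0 genes (0%). The Bcl6 change there was 0.42 ± 0.23 (SE). The difference between the 2 housings' changes was tested directly and called for 0 of the 5 genes, as for 0% of all genes. It was 0.57 ± 0.28 for Bcl6 (adjusted p = 0.468, edgeR), the only member with an unadjusted p under 0.05, and DESeq2 called 0 of the 5 and 0.279% of all genes. A change in conventional mice that the SPF mice lack was therefore not shown.

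**Figure D2:**
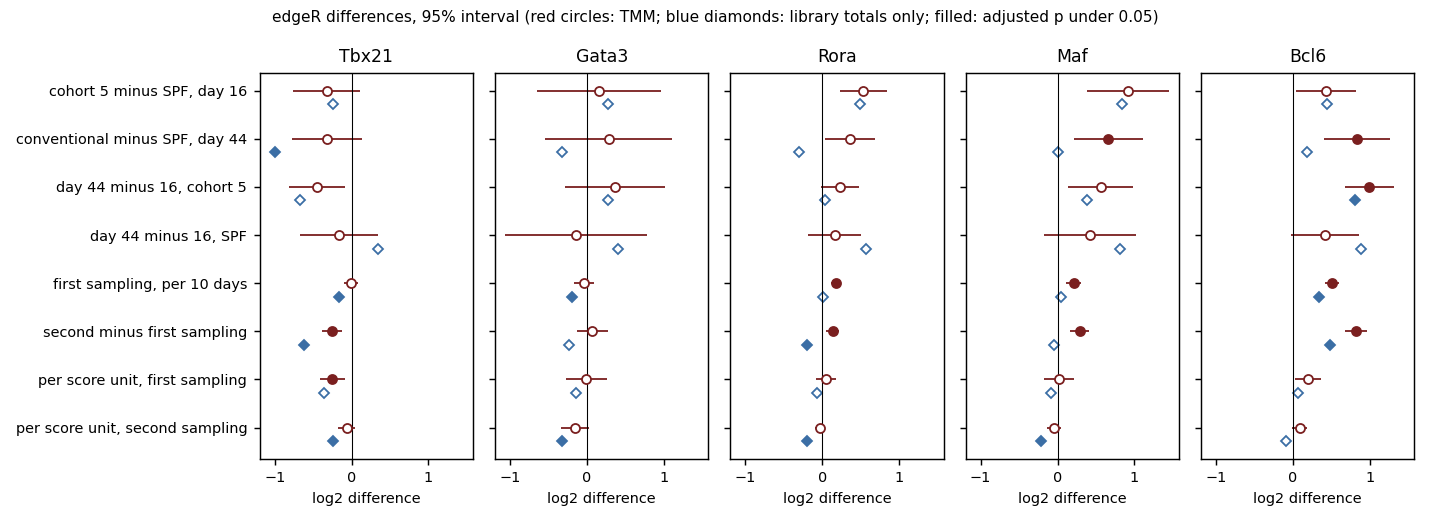
Log2 difference of each gene in 8 comparisons with its 95% interval; red circles use TMM scaling, blue diamonds library totals only, and filled symbols have an adjusted p under 0.05. The Bcl6 value is 0.82 for second against first sampling and 0.51 per 10 days in the first sampling, and stays above 0 with library totals at 0.49 and 0.34, while those of Rora and Maf move to between -0.20 and 0.05.

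Among the 9 days of the first sampling, 4 of the 5 genes differed, beside 57.9% of all genes. The adjusted p of any difference was 1.11e-13 for Bcl6, 1.72e-04 for Rora, 0.00213 for Tbx21 and 0.00233 for Maf (edgeR), and 0.156 for Gata3. Each day is a single cohort with its own mice, so day and cohort cannot be told apart. The tests took single mice as independent, and their p-values do not measure the spread between cohorts. Bcl6, Maf and Rora were higher in the cohorts sampled on later days. Per 10 days the log2 slope was 0.51 ± 0.05 for Bcl6 (SE; adjusted p = 1.76e-16), 0.21 ± 0.05 for Maf (2.39e-04) and 0.17 ± 0.03 for Rora (1.01e-06), where 24.3% of all genes were called higher, 28.3% lower and 52.6% in all. The slopes of Tbx21 (-0.01 ± 0.05) and Gata3 (-0.04 ± 0.07) were not called. With library totals only, the median of all genes fell by 0.17 per 10 days, 1444 genes were called higher and 10186 lower against 4425 and 5144 with TMM. Bcl6 was still called at 0.34, Maf and Rora were at 0.05 and 0.01 and not called, and Tbx21 and Gata3 were called lower at -0.17 and -0.20, a slope equal to or near that of the median gene.

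Day by day, Bcl6 was higher than on day 2 from day 12 on. For days 12, 16, 19, 23, 26 and 30 the log2 differences were 0.62, 0.74, 1.10, 1.46, 1.16 and 1.42, each called, after 0.39 and 0.32 on days 5 and 9, which were not. Rora was called higher on days 19, 26 and 30 (0.39, 0.47 and 0.47) and Maf on the same days (0.59, 0.67 and 0.54). Tbx21 was called on day 23 only (0.42 ± 0.16, SE; adjusted p = 0.0337, edgeR), when its lowest library, at 2.25 CPM, lay near the median of the day-2 libraries, 2.27 CPM. Gata3 was called on no day, with an unadjusted p under 0.05 on none. In all 13 of 40 such differences were called. The share of all genes called against day 2 was, for days 5, 9, 12, 16, 19, 23, 26 and 30, 0.275%, 2.4%, 12.2%, 12.2%, 30.4%, 37.4%, 31.3% and 37.9%.

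Within cohorts grouped by their median shares of globin and mitochondrial rRNA fewer of the 5 genes were called. Single libraries departed from these medians. Cohort 9 day 30 replicate 8 had 0.732% globin and 3.54% mitochondrial rRNA counts, beside medians of 7.83% and 15.4% in cohorts 6 to 9. In cohorts 1 to 4 (days 2 to 12) Bcl6 and Rora were called at 0.50 and 0.28 per 10 days, beside 23.2% of all genes, and Maf was at 0.33 (adjusted p = 0.136, edgeR). In cohorts 6 to 9 (days 19 to 30) none was called, beside 2.74% of all genes, and the Bcl6 slope was 0.20 ± 0.16 (SE; adjusted p = 0.614, edgeR). All 12 neutrophil markers were called higher with the day, with a median slope of 1.23, and the group medians of their summed level ran from 423 CPM on day 2 to 5532 CPM on day 23. With T cell and neutrophil marker means as covariates the Bcl6 slope was 0.11 (adjusted p = 0.113, edgeR), while Rora at 0.17 and Maf at 0.24 were still called.

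Between the first and the second sampling of the 9 conventional cohorts, Bcl6 rose most of the 5. Over 90 libraries each, the lowest, median and highest were at 4.45, 12.3 and 33.4 CPM in the first and at 8.56, 23.4 and 40.0 CPM in the second. The medians of Bcl6 were higher in the second sampling in 9 of 9 cohorts, and the log2 difference with cohort as a covariate was 0.82 ± 0.07 (SE; adjusted p = 2.28e-20, edgeR), or 1.76-fold. Maf rose by 0.29 ± 0.06 on the log2 scale (adjusted p = 2.98e-05), from a median of 4.46 CPM to 5.56 CPM, with higher medians in 8 of 9 cohorts. Rora rose by 0.14 ± 0.04 (adjusted p = 0.00362), from 8.21 to 9.49 CPM, with higher medians in 7 cohorts. Tbx21 was the only one called lower, at -0.26 ± 0.07 (adjusted p = 3.88e-04), from a median of 2.32 CPM to 1.87 CPM, with lower medians in 8 of 9 cohorts. Gata3 was at 0.643 and 0.678 CPM and its difference was 0.07 ± 0.10 (adjusted p = 0.574), while its medians were lower in the second sampling in 6 of 9 cohorts. Thus 4 of 5 genes were called beside 62.3% of all genes, of which 31.1% were higher and 31.2% lower.

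With library totals only, the median of all genes fell by 0.38, 1673 genes were called higher and 11936 lower against 5649 and 5677 with TMM, and Rora was called lower at -0.20 and Maf stood at -0.04, so the direction of these rises depends on the scaling. Bcl6 was still called higher at 0.49 and Tbx21 lower at -0.61, and Gata3 turned to -0.23 without a call. Relative to the median gene the differences were then 0.87 for Bcl6, 0.34 for Maf, 0.19 for Rora, 0.15 for Gata3 and -0.23 for Tbx21. In cohorts 1 to 4 alone the same 4 genes were called, Bcl6 at 1.14, beside 64.3% of all genes. In cohorts 6 to 9 alone Bcl6 was the only gene of the 5 called, at 0.40 ± 0.11 (SE; adjusted p = 0.00797, edgeR), beside 19.3%, and Tbx21 had almost the same value as over all cohorts (-0.26 ± 0.11) with an adjusted p of 0.0891.

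The change of Bcl6 between samplings differed between cohorts (adjusted p = 1.37e-05, edgeR interaction test), and no such difference was called for the other 4 genes. With library totals only it was not called for Bcl6 either (adjusted p = 0.098). Of all genes 36.3% were called in that test. Bcl6 rose by 1.63 in cohort 1, where the libraries of day 2 (4.45 to 9.29 CPM) and day 44 (16.6 to 30.8 CPM) did not overlap. It rose by 1.01, 1.08, 1.07 and 1.01 (log2) in cohorts 2 to 5, and the libraries of cohort 3 did not overlap either (5.86 to 12.7 CPM and 13.6 to 32.2 CPM). In cohorts 6, 7 and 9 the differences were 0.36, 0.16 and 0.24 and not called, and in cohort 8 Bcl6 rose by 0.83 (adjusted p = 0.0232, edgeR). Interval between draws, day of the first draw and cohort cannot be told apart here.

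The other 4 genes were called in 5 single changes in all. Tbx21 fell by 0.50 in cohort 2 and by 0.67 in cohort 7, whose first libraries had the highest group mean. Rora rose by 0.42 in cohort 2, and Maf rose by 0.63 in cohort 3 and by 0.58 in cohort 5 (log2). Gata3 was called in none of the 9 cohorts, with values from -0.42 to 0.52. Over the 9 cohorts the share of all genes called was 39.1%, 47.2%, 25.3%, 31%, 14.6%, 21.6%, 2.95%, 1.35% and 7.14%, in the order of cohorts 1 to 9.

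**Figure D3:**
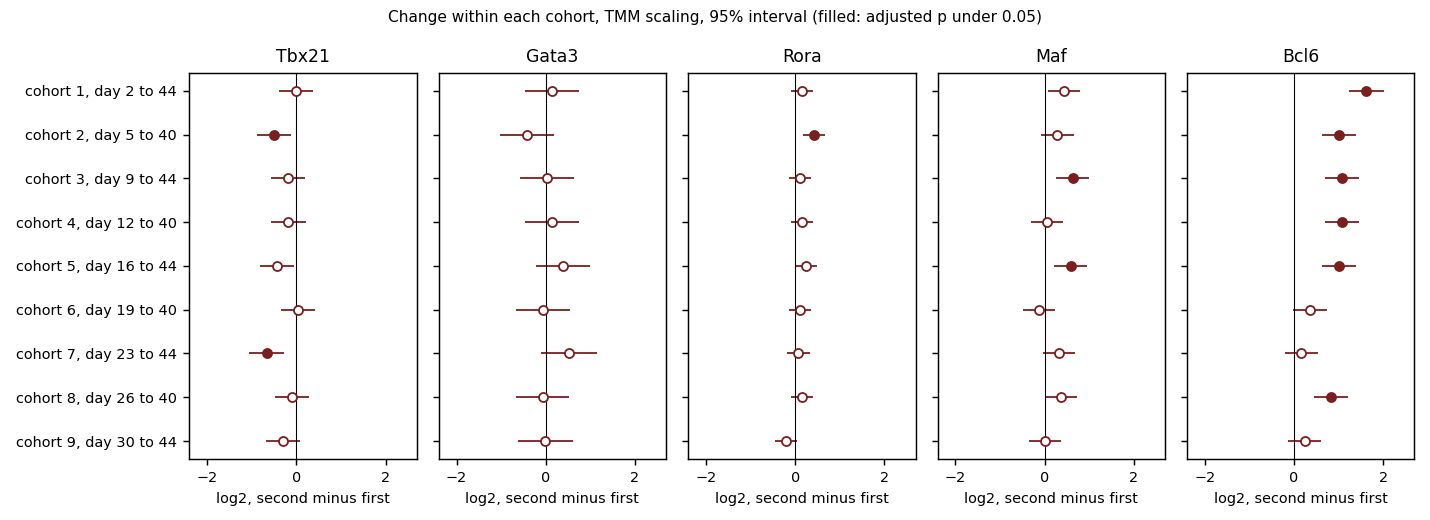
Log2 change from the first to the second sampling in each of the 9 cohorts, with its 95% interval; filled symbols have an adjusted p under 0.05. Bcl6 is filled in cohorts 1 to 5 and 8, with values from 0.83 to 1.63, and the other 4 genes are filled in 0 to 2 cohorts each.

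Markers of several blood cell types moved between the same samplings. All 12 neutrophil markers were called higher (median log2 difference 1.70), with group medians of the summed level of 423 to 5532 CPM in the first sampling and 4034 to 8161 CPM in the second. Of 18 T cell markers 14 were called lower and 0 higher, with group medians of 249 to 312 CPM in the first sampling and 219 to 277 CPM in the second. All 9 NK cell markers were called lower (median -0.36), with group medians of 95.9 to 142.5 CPM and 82.7 to 98.1 CPM. Every B cell marker was called lower as well, from -0.78 (Fcer2a) to -0.27 (Cr2) on the log2 scale. Every erythroid marker was called higher, from 0.64 (Alas2) to 1.56 (Epb42), and every platelet marker, from 0.18 (Pf4) to 0.72 (Itgb3). Monocyte markers went both ways. Most were called higher, up to 1.14 (Cd14), while Ace, Cx3cr1 and Nr4a1 were called lower (-0.41, -0.21 and -0.24). None of these markers was at 0 in every library. With the T cell and neutrophil marker means as covariates the Bcl6 difference was 0.21 ± 0.06 (SE; adjusted p = 0.00742, edgeR) in place of 0.82. Maf (0.28) and Tbx21 (-0.22) stayed called, Rora was at 0.09 and not called, and Gata3 was called higher at 0.34 ± 0.12 (adjusted p = 0.0395). The part of the NK cell, B cell, monocyte, erythroid and platelet markers in these differences was not tested.

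The dermatitis score of the mouse was then related to each gene, with cohort as a covariate. In the second sampling none of the 5 genes was called, while 37.6% of all genes were. The lowest, median and highest Bcl6 library were at 10.1, 16.8 and 36.8 CPM in the 7 libraries of score 0, at 10.1, 21.4 and 40.0 CPM in the 27 of score 2 and at 13.6, 24.1 and 33.1 CPM in the 39 of score 3. The medians did not follow the score in order, with 26.2 CPM in the 5 libraries of score 0.5 and 20.6 CPM in the 11 of score 1, and the single library of score 4 was at 19.3 CPM. The ranges at scores 0, 2 and 3 overlap, and the slope was 0.09 ± 0.05 on the log2 scale per point of score (SE; adjusted p = 0.163, edgeR). Gata3 had medians of 0.867, 0.491, 0.698, 0.732 and 0.601 CPM at scores 0, 0.5, 1, 2 and 3, also not in order, a level of 0.184 CPM in the library of score 4, and a slope of -0.16 ± 0.09 (adjusted p = 0.182). The slopes of Tbx21, Rora and Maf were -0.06 ± 0.06, -0.03 ± 0.03 and -0.04 ± 0.05. An unadjusted p under 0.05 was reached by none of the 5, and DESeq2 called none of the 5 beside 39.5% of all genes.

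That result differed by scaling and by cohort. With library totals only, the median of all genes fell by 0.21 per point and 830 genes were called higher and 9310 lower, 55.7% of all genes in all. Of the 5 genes 4 were called lower, Tbx21 at -0.24, Gata3 at -0.32, Rora at -0.20 and Maf at -0.21, of which Gata3 alone was over 0.1 below the median gene (-0.11). In cohorts 1 to 4 Rora and Maf were called lower with the score, at -0.16 ± 0.06 and -0.15 ± 0.06 (SE; adjusted p = 0.0322 and 0.0456, edgeR), beside 30.8% of all genes. In cohorts 6 to 9 the same slopes were 0.10 ± 0.05 and 0.08 ± 0.08, and 0% of all genes were called.

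In the first sampling, over the 60 libraries of days 12 to 30, Tbx21 fell with the score, by 0.25 ± 0.08 on the log2 scale per point (SE; adjusted p = 0.045, edgeR), beside 9.93% of all genes. The medians of Tbx21 were 2.22 CPM in the 28 libraries of score 0 from these days, 2.18 CPM at score 0.5, 2.49 CPM at score 1 and 2.36 CPM at score 2, and the single library of score 3 was at 1.21 CPM. The fall appears within cohorts and not in these pooled medians. The call was lost in 8 of 10 alternatives, which all kept the sign. In cohorts 6 to 9 alone the slope was close to it (-0.26 ± 0.09, adjusted p = 0.0556), beside 7.28% of all genes. Of the T cell markers 5 of 18 were called lower with the score and of the NK cell markers 2 of 9, with 0 of either list called higher. With the T cell marker mean as a covariate the Tbx21 slope was -0.17 (adjusted p = 0.472, edgeR), and the part of the NK cell markers was not tested.

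Bcl6 had pooled medians of 12.2 CPM in the 28 libraries of score 0 from days 12 to 30 and 21.2 CPM in the 10 of score 2. With cohort taken into account the slope was 0.20 ± 0.09 (SE; adjusted p = 0.137, edgeR). The slopes of Rora, Maf and Gata3 were 0.05 ± 0.07, 0.02 ± 0.10 and -0.01 ± 0.14. The difference between the slopes of the 2 samplings was called for 0 of the 5 genes and 0% of all genes, with an unadjusted p under 0.05 for none of the 5. DESeq2 called none of the 5 and 1.42% of all genes.

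**Figure D4:**
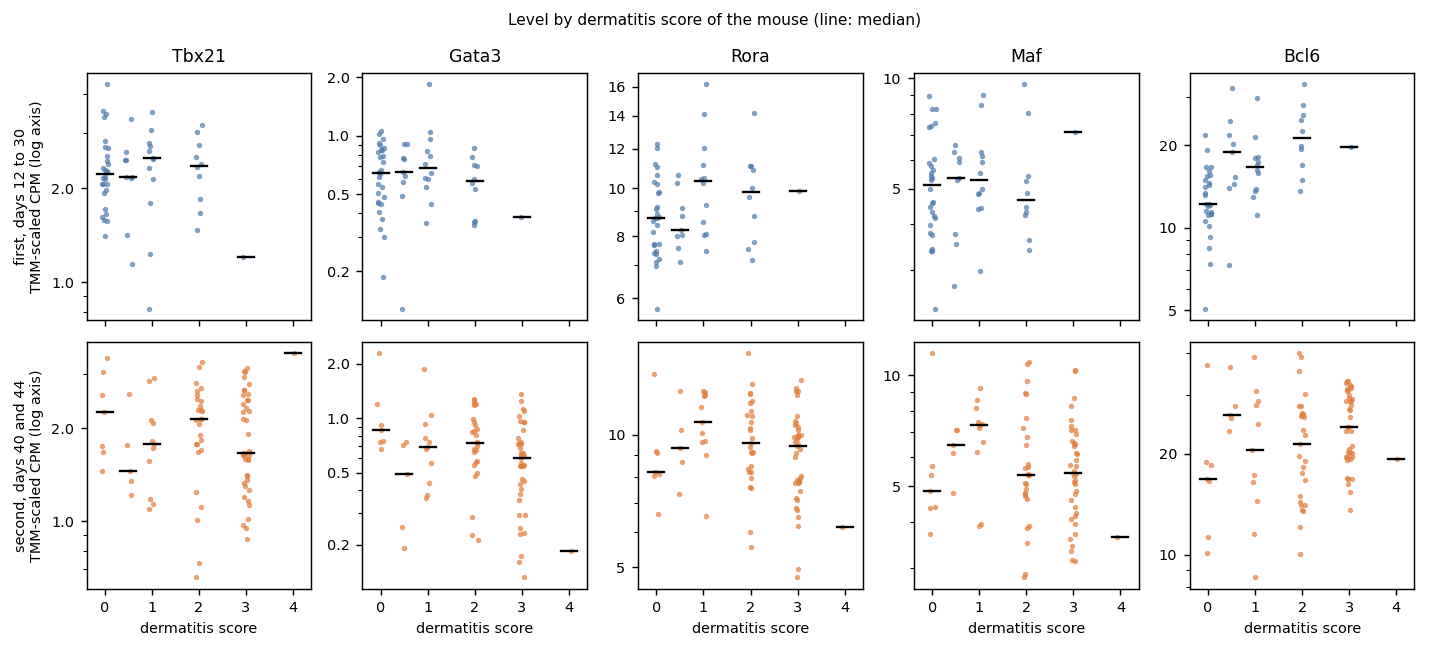
Level of each gene against the dermatitis score, in TMM-scaled CPM on a log axis, for the 60 first-sampling libraries of days 12 to 30 (top) and the 90 of the second sampling (bottom); points are libraries and lines medians. In the second sampling the ranges at scores 0, 1, 2 and 3 overlap for all 5 genes, and the Bcl6 medians, 16.8 CPM at score 0, 26.2 CPM at 0.5, 20.6 CPM at 1, 21.4 CPM at 2 and 24.1 CPM at 3, do not follow the score in order.

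The balance of Gata3 over Tbx21, often used as an index of Th2 against Th1 bias, was looked at after the values had been seen and is given as a description. The median log2 ratio of counts (with 0.5 added to each) was -1.76 in the first sampling, -1.66 in the second and -2.15 in the SPF libraries, with SDs of 0.735 and 0.927 in the conventional samplings. Within cohorts the median ratio was higher in the second sampling in 8 of 9, with ranges that overlap. It went from -1.84 to -1.83 in cohort 1 and from -2.76 to -1.47 in cohort 7, and fell from -1.53 to -1.78 in cohort 2. By score in the second sampling, the medians were -1.28 at 0, -1.78 at 0.5, -1.46 at 1, -1.68 at 2 and -1.66 at 3, within ranges that overlap, and the single library of score 4 was at -4.09.

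Genes that act with each factor were followed in lists of partners, receptors, cytokines and targets. These lists share the samplings with the 5 genes, and their counts stand beside 62.3% of all genes called between samplings and a median of -0.02 over all genes. Of the 13 genes of the Th2 and GATA3 list 10 were tested, and 6 were called higher and 0 lower in the second sampling, with a median of 0.35. The IL-4 receptor chain Il4ra rose by 0.58 ± 0.07, its signal transducer Stat6 by 0.42 ± 0.04, the GATA cofactor gene Zfpm1 by 1.16 ± 0.14 and the repressor gene Nfil3 by 1.47 ± 0.13 (log2 ± SE). These 4 genes are not particular to Th2 cells. Also called higher were Ccr4 at 0.41 ± 0.09 and Il1rl1 at 0.25 ± 0.05. Il4 was at 0.29 ± 0.15 (adjusted p = 0.0768, edgeR) and not called, nor were Gfi1, Il17rb and Ptgdr2. Il5, Il13 and Ccr8, which are closer to effector Th2 cells, did not pass the filter on low counts, and Il5 was above 0 in 15 of 190 libraries. The ILC2 marker list shares Il1rl1 and Il17rb with this list.

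Of the 12 Th1 and T-bet genes, all tested, 5 were called higher and 4 lower, with a median of -0.02. The IL-18 receptor chain Il18rap rose by 0.77 ± 0.08, while Eomes, the T-box factor closest to T-bet, fell by 0.27 ± 0.06. Of the 13 Th17 and ROR genes 9 were tested, and 6 were called higher and 3 lower, with a median of 0.47. The IL-6 and IL-23 signal transducer Stat3 rose by 0.68 ± 0.06, the aryl hydrocarbon receptor Ahr by 0.66 ± 0.08 and the AP-1 factor Batf by 0.45 ± 0.07, while Irf4 fell by 0.46 ± 0.05. The cytokine genes Il17a, Il17f and Il22 did not pass the filter, and Il17a was above 0 in 4 of 190 libraries.

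Of the 14 follicular helper and BCL6 genes 13 were tested, and 5 were called higher and 5 lower, with a median of -0.09. Hdac4, a deacetylase that BCL6 recruits, rose by 0.87 ± 0.09 and Zbtb7b, the CD4 lineage factor ThPOK, by 0.43 ± 0.06. The follicular homing receptor Cxcr5 fell by 0.41 ± 0.06 and the inhibitory receptor Btla by 0.45 ± 0.07, both of which B cells also carry. Of the 9 Maf and IL-10 genes 7 were tested, and 3 were called higher and 1 lower. The small Maf genes Mafg and Mafk rose by 0.58 ± 0.06 and 0.54 ± 0.09, while Bach2 fell by 0.51 ± 0.08. Of 6 regulatory T cell genes 2 were called higher, Nrp1 at 0.18 ± 0.05 and Foxp3 at 0.30 ± 0.12, and 1 lower, Il2ra at -0.22 ± 0.08, and Tnfrsf18 was at 0.07 ± 0.06 and not called. With library totals only these counts changed to 2 higher and 3 lower for Th2, 1 and 8 for Th1, 3 and 3 for Th17, 1 and 9 for the follicular helper list, 0 and 3 for Maf and IL-10 and 0 and 4 for the regulatory T cell list.

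The same lists were counted in the other comparisons. In the first sampling, 7 of the 10 tested Th2 genes were called higher with the day and 1 lower, beside 52.6% of all genes. Per 10 days Nfil3 had a slope of 0.85 ± 0.08 and Il4 of 0.53 ± 0.12, and the 1 called lower was Gfi1 at -0.18 ± 0.08. Every basophil and mast cell marker was called higher over the same days, from 0.16 (Cpa3) to 0.53 (Fcer1a). The eosinophil markers Ccr3, Siglecf, Alox15 and Ear6 were also called higher, at 0.62 to 0.94, while Il5ra and Prg2 were not called. The part of these cells in the slopes of the Th2 list was not tested. Of the Th1 genes 4 were called higher and 0 lower, of the Th17 genes 3 each way, and of the follicular helper genes 4 each way. On day 44, 4 Th2 genes, 3 Th1 genes and 3 Th17 genes were called higher in conventional than in SPF mice, and 2 Th17 genes lower, beside 20.1% of all genes. Of the follicular helper genes 2 were called higher and 4 lower on that day. With the score in the second sampling, 4 of the 10 tested Th2 genes rose and 0 fell, beside 37.6% of all genes called. They were Il4ra (0.30 ± 0.05 per point), Zfpm1 (0.60 ± 0.13), Nfil3 and Stat6, the same 4 genes described above as not particular to Th2 cells. Il4, Ccr4, Il1rl1, Il17rb, Ptgdr2 and Gfi1 were not called. Every neutrophil and erythroid marker was called higher with this score and every B cell marker lower, and their part was not tested. In cohorts 6 to 9 alone 0% of all genes were called. Of the follicular helper genes 2 rose and 6 fell with the score over all cohorts. In that comparison none of the 5 lineage factors was called.

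Between mice of the same group the 5 genes moved together only in part. Residuals of log2 CPM from the 20 group means were compared over 190 libraries, with 100000 permutations within groups and adjustment over the 10 pairs. Rora and Maf had the closest relation (Pearson r = 0.53, Spearman rho = 0.512, adjusted permutation p = 1e-04 for both, the smallest that could be reached), and r was 0.524 without the 2 libraries farthest from the median. It was 0.477 in cohorts 1 to 4, 0.59 in cohort 5, 0.539 in cohorts 6 to 9, 0.481 in the first sampling and 0.542 in the second. Gata3 followed Rora less closely (r = 0.332, rho = 0.289, adjusted permutation p = 3.5e-04 and 0.001, r = 0.275 without the 2 farthest). Tbx21 ran against Maf (r = -0.235, rho = -0.244, adjusted permutation p = 0.00737 and 0.00347, r = -0.281 without the 2 farthest), with r of -0.277 in cohorts 1 to 4 and -0.163 in cohorts 6 to 9. Maf and Bcl6 had r = 0.215 and rho = 0.268 (adjusted permutation p = 0.0148 and 0.00173), which cohorts 1 to 4 and 6 to 9 shared unequally (r = 0.113 and 0.379). Tbx21 and Gata3, the opposed factors of Th1 and Th2, had a weak relation in the same direction (r = 0.19, rho = 0.192, adjusted permutation p = 0.0374 and 0.0242), and in the first sampling it was 0.0414. All values of a library share its depth and scaling factor.

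The same residuals were compared with the mean of each of 10 marker lists, 50 relations in all. Bcl6 was closest to the neutrophil markers (r = 0.709, rho = 0.679, r = 0.677 without the 2 farthest, adjusted permutation p = 8.33e-05), with r of 0.653 in cohorts 1 to 4 and 0.786 in cohorts 6 to 9. It also followed the monocyte markers (r = 0.535, rho = 0.509) and ran against the T cell (r = -0.271) and B cell markers (r = -0.287). Tbx21 followed the T cell markers (r = 0.42, rho = 0.386), the NK cell markers (r = 0.337, rho = 0.344) and the B cell markers (r = 0.304, rho = 0.318). It ran weakly against the neutrophil (r = -0.195) and erythroid markers (r = -0.222). Gata3 was nearest to the B cell (r = 0.389, rho = 0.336) and T cell markers (r = 0.374, rho = 0.27), but in the first sampling these were 0.0498 and 0.0972, and the relation rests on the second sampling (0.548 and 0.468). Maf followed the ILC2 list (r = 0.364, rho = 0.363), at 0.456 in cohorts 1 to 4 and 0.194 in cohorts 6 to 9. Rora was about as close to the ILC2 list (r = 0.281, rho = 0.252) as to the basophil and mast cell list (r = 0.269, rho = 0.28). The ILC2 list had only 5 tested genes, with group medians of the summed level of 7.83 to 12.4 CPM. In some groups 1 of its markers was at 0 in every library. It shares Il2ra with the regulatory T cell list and Il1rl1 and Il17rb with the Th2 list, so a relation to it is not particular to ILC2. Maf ran against the platelet markers (r = -0.435, rho = -0.426), at -0.485 in cohorts 1 to 4 and -0.406 in cohorts 6 to 9. Between Maf and the T cell markers r was -0.0757 over all libraries (adjusted permutation p = 0.451), with opposite signs in the first sampling (r = -0.383, rho = -0.402) and the second (r = 0.145).

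**Figure D5:**
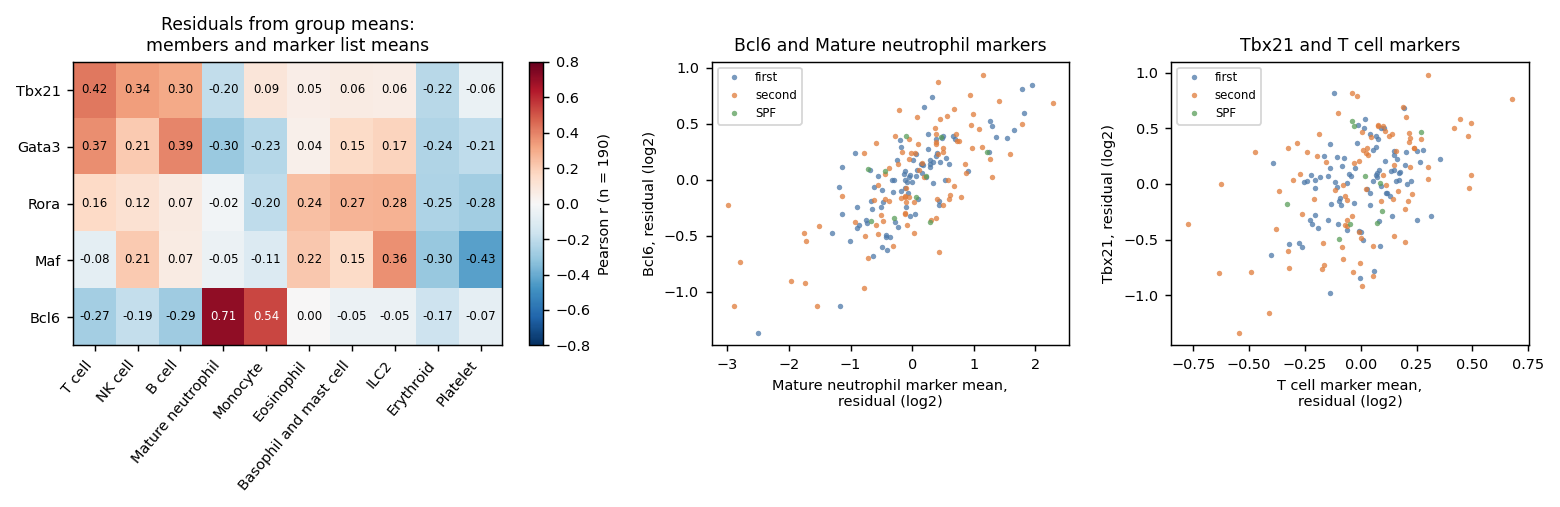
Left, Pearson r over 190 libraries between the residuals of each gene and of the mean of each marker list, from blue (negative) to red (positive); the scatter plots show single libraries, coloured by sampling, as residuals in log2. Bcl6 is reddest for neutrophil (0.709) and monocyte markers (0.535), and Tbx21 for T cell markers (0.42).

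The genes most like each factor between mice of a group were taken from 14120 protein-coding genes by Pearson r of the same residuals and are given as a description, with no test. For Bcl6 they were Xpo6, Ssh2, Tmcc1, Iqgap1 and Lcp1, at r of 0.893 to 0.864, and the first and last of these encode an export receptor for actin and an actin-bundling protein of leukocytes. For Tbx21, H2-Q7, Lck, Spn and Acap1 were among them, at 0.494 to 0.482. Lck, the kinase of the T cell receptor, is among them. For Gata3 they were Foxo1, Ubash3a, Dyrk2, Ablim1 and Aff3, at 0.501 to 0.481. Rora was nearest to the IL-18 receptor gene Il18r1, then Gprin3, Zbtb20, Ikzf2 (Helios) and Ccser2, at 0.472 to 0.448. Maf was nearest to Lrrc58, Cdc73, Nap1l1, Zbtb20 and Nbeal1, at 0.634 to 0.577, and shares Zbtb20, a repressor of the BCL6 family of zinc finger proteins, with Rora. The nearest genes of Bcl6 lay closer to it than those of the other 4 factors did to theirs, at counts that were also the highest of the 5.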

How the data were processed

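Whole-blood RNA of 190 libraries was measured with stranded total-RNA libraries depleted of ribosomal and globin RNA, per the labels' protocols. The authors deposited expected counts per gene and a table of TPM values, made with DRAGEN on build GRCm39 per the submitters' processing notes. Its version, the annotation and the read filters were not given in the sources used here. Of the expected counts 2.859% were not whole and were rounded. All 190 columns were matched by library name and 0 were unused. TPM served only to compare levels between genes.

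The filterByExpr step of edgeR, run on 20 groups with a minimum count of 10 and total of 15, left 18192 genes. Each comparison used a fit of its own libraries with TMM factors computed within it and edgeR's robust quasi-likelihood test (edgeR 4.0.16, limma 3.58.1, R 4.3.3), two-sided, with Benjamini-Hochberg adjustment over all tested genes. A gene was called at an adjusted p under 0.05, and SE was computed as |log2 value| over sqrt(F). Fits with TMM factors over all libraries were also seen before this choice, and the 5 genes' calls were the same but for Rora on day 12 against day 2. Alternatives were DESeq2 1.42.0, other size factors, no filter, a replicate block, marker and RNA-share covariates, subsets of cohorts and single SPF replicates left out, with results in the closing section. Relations between genes used log2 CPM with a prior count of 2, in Python 3.11.15 with numpy 2.4.6 and pandas 2.3.3. The edgeR script was checked on simulated counts.

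The 5 genes and all lists were chosen with earlier results of these data known. Named from each list were at most 4 genes with the smallest adjusted p between samplings, and as most alike the 5 protein-coding genes with the highest r. Other genes were named after their values were seen, and a few genes that these rules pick are not reported here.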

Additional observations from a re-analysis of the deposited data

Results flagged for a closer look

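In 100 sets of 5 or 10 libraries (5 genes in 20 groups), 5 had a highest or lowest library far from the rest by Dixon's test, which chance gives in about 1 of 20. Tbx21 stood at 4.60 CPM in cohort 3 day 9 replicate 10, where the other libraries ran from 1.81 to 2.93 CPM. Gata3 stood at 1.28 CPM in cohort 4 day 40 replicate 8, against 0.482 to 0.874 CPM in the others. In cohort 6 day 19 replicate 3 both Gata3 (1.84 CPM, others 0.356 to 0.788 CPM) and Rora (16.2 CPM, others 7.41 to 11.04 CPM) were the highest of the group. Maf was lowest in SPF day 44 replicate 4, at 2.10 CPM against 3.89 to 4.38 CPM. The change of Bcl6 between samplings differed between cohorts, with an adjusted p of 1.37e-05 in edgeR's interaction test and of 0.098 with library totals only.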

How the results depend on the processing

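Of the 5 genes in 12 comparisons, the calls named here changed with a setting, and the cause was not tested. Values are log2 differences or slopes as in the report, and a value that changed sign was called only where this is said. With library totals only, day 44 between housings gave Rora -0.30 and Gata3 -0.32 with 1 gene called, the change in SPF mice gave Tbx21 0.35 and Gata3 0.41, and the difference of changes gave Gata3 -0.14, Rora -0.53, Maf -0.43 and Bcl6 -0.09. Between samplings they gave Gata3 -0.23, Rora -0.20 (called) and Maf -0.04, and 0 of the 5 genes were called for a change that differs by cohort. Their score slopes were -0.09 for Bcl6 (4 genes called) in the second sampling and -0.07 for Rora and -0.08 for Maf (0 called) in the first, and 5 of 40 differences between days and 4 of 45 changes of single cohorts were called, in place of 13 and 11. With the T cell marker mean as a covariate Tbx21 was at 0.05 for housing on day 44, 0.06 for the trend and 0.06 for the score in the second sampling, where Gata3 was at 0.003 and Rora at 0.01. Rora (-0.07) and Maf (-0.18) turned in the difference of changes and Gata3 (0.03) and Maf (-0.09) in the first-sampling score, with 0 called there. With T cell and neutrophil marker means the trend gave Tbx21 0.01 and Gata3 0.10, the second-sampling score Tbx21 0.05, Gata3 0.12 and Bcl6 -0.10, and the first-sampling score Gata3 0.01 and Bcl6 -0.12 with 0 called. They called 2 genes for housing on day 16, 0 on day 44, 0 for the change of cohort 5, 4 of 40 between days and 2 of 45 in single cohorts.

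With globin and mitochondrial rRNA shares as covariates Gata3 was at -0.10 for housing on day 16, -0.37 for the change of cohort 5 and -0.31 for the difference of changes, where Maf was at -0.06. Tbx21 was at 0.05 for the change in SPF mice and 0.11 for the trend, Rora at 0.02 and Maf at 0.07 for the second-sampling score, Rora at -0.01 and Maf at -0.10 for the first, and Rora at 0.03 and Maf at 0.18 for the difference of slopes. The genes called were 2 among days, 1 in the trend, 7 of 40 between days, 1 (Bcl6) with the second score and 0 with the first. Within cohorts 1 to 4 Gata3 was at -0.09 between samplings and Tbx21 at 0.03 with the second score, with 2 genes called. Within cohorts 6 to 9 Tbx21 was at 0.19 in the trend, Gata3 at 0.10, Rora at 0.10 and Maf at 0.08 with the second score and Gata3 at 0.01 with the first. There 0 genes were called in the trend, 1 between samplings and 0 with the first score. Small sign changes near 0 were Gata3 at 0.0015 with RLE size factors (first score, 0 called), Tbx21 at 0.0046 with TMM over all libraries and 0.0039 in libraries of score 0 (trend), Gata3 at 0.08 for the SPF change without the library of 45.3% globin, and the Gata3 and Bcl6 correlation at 0.098 in the first sampling. DESeq2 called 1 gene for housing on day 16, cohort 5 alone 4 on day 44, no filter 1 on day 44 and 0 with the first score, and library sizes without the most abundant genes 0 with the first score. Leaving out single SPF replicates gave 0 to 1 calls for housing on day 16 and 1 to 1 on day 44, and without SPF replicate 1 the difference of changes was -0.01 for Maf and -0.06 for Rora, with all such values from -0.01 to 0.30 for Maf and from -0.06 to 0.15 for Rora. Over all genes the calls ran from 20 to 488 (97 in the report) for housing on day 16, 1.02% to 43.5% of genes (20.1%) on day 44, 202 to 2733 (2287) for cohort 5, 0 to 1 (0) for SPF mice, 0 to 50 (0) for the difference of changes, 5659 to 15722 (10525) among days, 498 to 12609 (9569) for the trend, 3479 to 14084 (11326) between samplings, 0 to 10140 (6838) and 0 to 2278 (1807) for the scores and 0 to 258 (0) for their difference. Bcl6 kept its sign in 12 of 12 and its call in 12 of 12 alternatives between samplings. The library totals and TMM over all libraries were added after the data were seen.

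With the replicate number as a block, Gata3 was at -0.17 for housing on day 16 and -0.02 between samplings, 1 gene was called for housing on day 44 (Maf lost) and 2 for the change of cohort 5 (Maf gained). In single cohorts Maf was gained in cohort 1 (0.45) and Tbx21 lost in cohort 7 (-0.74), and the block changed no other call of the 5 genes. Whether equal numbers mark the same mouse was not settled. Residuals of same-numbered libraries correlated over 0.1 in 19 of 95 pairs (lowest -0.173, median 0.0181, highest 0.354), and 14 libraries correlated best with their own number. No chance level was computed for these values, so they neither show nor exclude pairing. The main tests took libraries as independent and left out any such link.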
